A study of Gallus gallus with 24 samples.

Results

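The genes of the cytosolic ribosomal proteins were taken from the platform annotation by symbol, namely RPL or RPS with a number, or the stalk proteins RPLP0, RPLP1 and RPLP2, with the RPS6K kinases left out. They came to 66 genes of 13009 with a symbol, 43 for the large and 23 for the small subunit. Together they had 139 probe sets, and 34 genes had more than 1. Each gene was read by its probe set with the highest mean log2 signal over the 24 arrays. All 66 symbols were found by gene ID in the RefSeq gene table of the chicken.

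The cytosolic ribosome, the particle that translates mRNA into protein, is built from ribosomal RNAs and a large set of proteins, most of them present once in each particle. The genes of these proteins, named RPL for the large and RPS for the small subunit, are among the most strongly transcribed genes of growing cells. Their mRNAs start with a tract of pyrimidines, and in mammals growth signals acting through the mTOR kinase govern how well such mRNAs are translated, so that the amount of a ribosomal protein mRNA and its use are separate quantities. The signals described here report the mRNA only.

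Retinal pigment epithelium (RPE), the pigmented monolayer behind the neural retina, was taken from White Leghorn chick embryos at embryonic day 7 (E7) or 14 (E14), cultured on filters and harvested for RNA after the monolayers had matured. In every culture the basal chamber held SF2, which is the serum-free medium SF3 with bovine pituitary extract. The apical chamber held SF3 or rcSF3, which is SF3 conditioned by neural retinas of E14 embryos, and each was used with and without fetal bovine serum in the basal chamber. The 4 media at 2 ages gave 8 groups of 3 arrays, each array from a biologic repeat pooled from several filters of a single plating. The medium conditioned by E14 retina was thus the same for both ages, and all cultures with serum received a single lot of it. The RPE markers chosen for this work had a mean signal over 100 in every group for all 14 genes with a probe set, with RPE65, TYR and DCT among them. In RNA from a whole culture, fewer cells of a type and less RNA per cell cannot be told apart, and the 3 arrays of a group limit the precision of every value below.

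The signals are intensities on a linear scale that the authors scaled per array to a single target, so that the mean signal without the top and bottom 2% was equal on the 24 arrays. A signal is therefore relative to the other mRNAs of the same culture. Replicate arrays correlated at 0.918 to 0.939 over all log2 signals. Differences were tested with limma on log2 signals, with Benjamini-Hochberg adjustment over all probe sets that had a mean signal of at least 100, and a gene is said to rise, fall or change only where the adjusted p was under 0.05. RPL3L did not reach this signal, which left 65 genes in each comparison.

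Most ribosomal protein genes lay at the top of the signal range. The median over the 66 genes of their mean signals was 19622, against 92.6 for all probe sets, and 59 of the 66 were among the 1000 brightest probe sets and 24 among the 100 brightest. RPL37A had a mean signal of 29687, RPS2 of 28616, RPS20 of 28290.4 and RPS16 of 27945. In all, 56 genes were over 10000, 7 lay between 1000 and 10000, and 3 were under 1000. Probe sets differ in how well they bind, so that the order of signals is not an order of mRNA amounts.

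**Figure D1:**
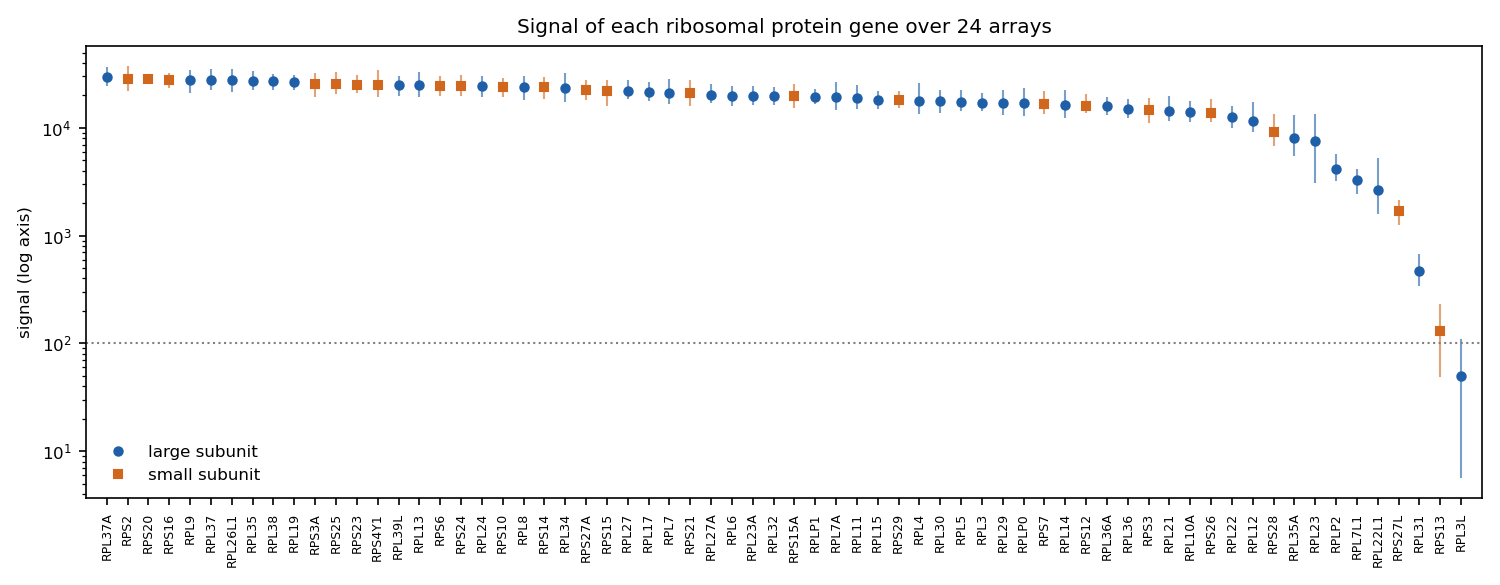
Mean signal of each of the 66 ribosomal protein genes over the 24 arrays, on a log axis, ordered by signal, with the large subunit as blue circles and the small subunit as orange squares. Vertical lines run from the lowest to the highest array and the dotted line marks a signal of 100; 56 genes lie over 10000, and RPL31, RPS13 and RPL3L lie under 1000.

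The 3 genes under 1000 were read by dim probe sets. RPL3L, which in mammals is the form of RPL3 found in heart and skeletal muscle, had a mean signal of 49.9, and its 24 arrays lay between 5.68 and 109.9. RPS13 was read at 131, with arrays from 48.6 to 234, since its brighter probe set carries the symbol of another gene as well and was left out by the rule. RPL31 was read at 470.0. The values of RPS13 scattered widely between replicates, and RPL31 was steadier, and only RPL31 of these 3 passed a test between groups below.

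The 7 genes between 1000 and 10000 held several second copies. RPS27L, a homolog of RPS27 that p53 induces in human cells, had a mean signal of 1695, RPL22L1, a homolog of RPL22, of 2656, and RPL7L1, which resembles RPL7 and is found on ribosome precursors, of 3251. The others were the stalk protein RPLP2 at 4140.3, RPL23 at 7571, RPL35A at 7997 and RPS28 at 9243. RPL26L1, RPL39L and RPS4Y1, which are second copies by symbol too, had signals of 27555, 25002 and 25015, in the range of the common ribosomal proteins.

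Across the 8 groups the genes formed a common pattern, with the highest signals in E7 cultures without serum and the lowest in E14 cultures with rcSF3 and serum. Of the 66 genes, 45 had their highest group mean in E7 cultures in SF3 and 15 in E7 cultures in rcSF3, and 48 had their lowest in E14 cultures with rcSF3 and serum. The span from the lowest to the highest group mean had a median of 0.52 on the log2 scale, against a median SD between replicates of 0.08. The 66 probe sets together made up 4.92% ± 0.24 (SD, n = 3) of the summed signal of the E7 arrays in SF3, 4.78% ± 0.11 with rcSF3, 4.21% ± 0.16 with serum and 3.94% ± 0.05 with both. The shares at E14 were 4.17% ± 0.09 in SF3, 4.20% ± 0.09 in rcSF3, 3.82% ± 0.08 with serum and 3.65% ± 0.17 with both. At each age the shares of the media with and without serum did not overlap, and rcSF3 alone left the share within the range of the SF3 arrays or, at E14, reached slightly above it.

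**Figure D2:**
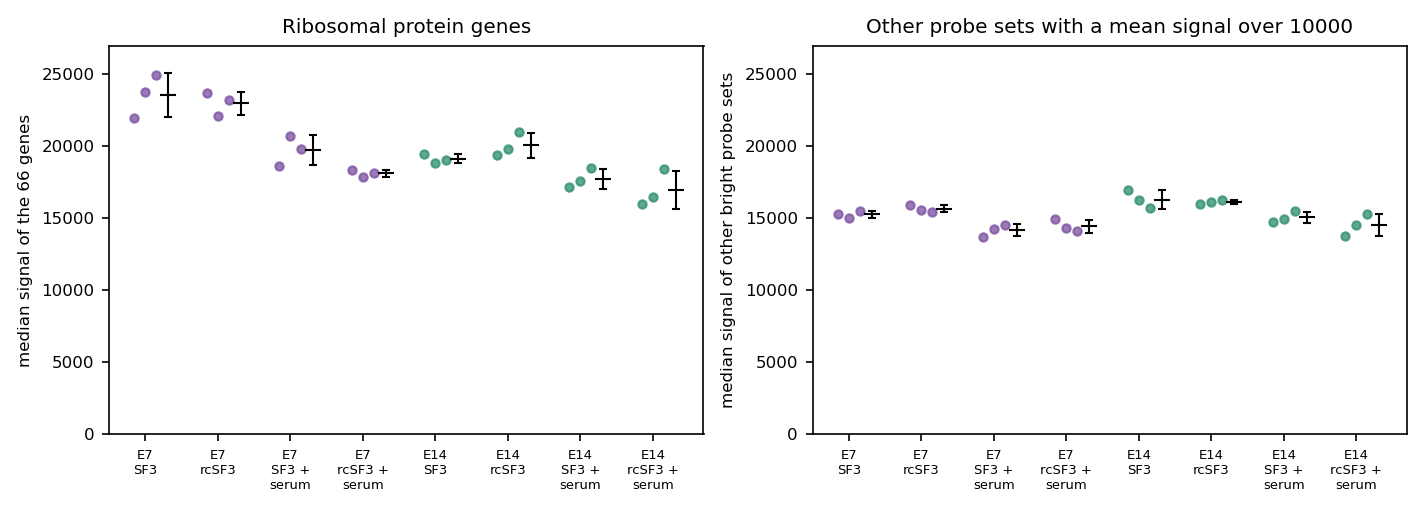
Median signal of the 66 ribosomal protein genes (left) and of the 408 other probe sets with a mean signal over 10000 (right) on each array, by age and medium; points are arrays, and bars give the mean and SD of 3 arrays. The ribosomal protein genes are highest on E7 arrays without serum, where all 6 medians lie between 21955 and 24946.

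Arrays of a group also differed from each other in all these genes at once. On replicate 1 of the E7 cultures in SF3, 65 of the 66 genes were below their group mean, with a median deviation of -0.09, and on replicate 3, 64 were above it, with a median deviation of 0.08. Replicate 3 of the E14 cultures with rcSF3 and serum had 62 of the 66 above the group mean, with a median deviation of 0.10. The genes of one array are therefore not separate measurements of a medium.

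On the authors' scaling, most of these mRNAs were lower in cultures with basal serum. In E7 cultures 53 of the 65 genes changed with serum, against 39.2% of all 18663 probe sets tested, and 51 of them fell, against 21.6% that fell among all. The other 2 rose, against 17.6% among all. The median log2 difference of the 65 was -0.29, or -18.3%, and the median of all probe sets was -0.04. The middle of the distribution, between its quartiles, ran from -0.37 to -0.21. Both subunits took part, with 34 of 42 large-subunit genes lower at a median of -0.28 and 17 of 23 small-subunit genes at -0.32. The 12 tested genes that did not pass were RPS20, RPS29, RPS26, RPS3, RPS13, RPL15, RPL27A, RPL30, RPL32, RPL36, RPL36A and RPLP1, with 9 of them between -0.13 and -0.06, RPL30 and RPL36A at 0.02 each and RPS13 at 0.36.

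RPL22L1 had the largest fall with serum at E7. Its signals were 4145, 4942 and 5238 in SF3 and 2676, 2721 and 2881 with serum. The groups did not overlap, which held for 51.1% of all probe sets, and the log2 difference was -0.78 ± 0.10 (SE), adjusted p = 5.10e-05. Groups without overlap were a condition for naming the genes with the largest changes, so that this adds no support to them, here or below. RPL23, which in human cells can bind the p53 regulator MDM2 when ribosome building fails, read 11758, 11262 and 13316 in SF3 and 8141, 6783 and 8252 with serum. All 3 serum arrays were below all SF3 arrays, with a log2 difference of -0.65 ± 0.09 (SE), adjusted p = 7.45e-05. RPL4, a protein that lines the tunnel through which the new chain leaves the ribosome, went from 22517, 23969 and 26099.9 to 15512, 16540.1 and 16310.2. Here too the groups lay apart, with a log2 difference of -0.58 ± 0.06 (SE) and adjusted p = 8.17e-06, the lowest adjusted p of the set. A second probe set of RPL4, with a mean signal of 15402, stood at a log2 difference of -0.48 (adjusted p = 7.26e-05). The other probe sets of RPL12, RPL22L1, RPL23, RPL31, RPL34 and RPL35A were dim, with mean signals between 17.8 and 178, so that these genes rest on 1 probe set each.

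RPL31, RPL35A and RPL34 completed the 6 largest falls with serum at E7. RPL31 read 558, 677 and 645 in SF3 and 421, 482 and 383 with serum, a log2 difference of -0.55 (adjusted p = 0.00337). RPL35A, a gene mutated in some human families with Diamond-Blackfan anemia, read 10669.9, 11758 and 13234 in SF3 and 7792, 8352 and 9466 with serum, a log2 difference of -0.48 (adjusted p = 6.25e-04). RPL34 read 27891, 29809 and 32025 and 19833, 22116 and 22742, a log2 difference of -0.47 (adjusted p = 9.49e-05). In each of the 3 the serum arrays lay below all SF3 arrays.

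The 2 genes that rose with serum at E7 were both second copies. RPS27L read 1324, 1312 and 1533 in SF3 and 1656, 1773 and 1683 with serum, higher on all 3 serum arrays, with a log2 difference of 0.30 (adjusted p = 0.0213). RPL7L1 read 3076, 3251 and 3716 and 3794, 4108 and 4173, also without overlap, with a log2 difference of 0.27 (adjusted p = 0.0308). The call of RPS27L was lost without any 1 of 3 arrays (replicates 1 and 2 in SF3 and replicate 2 with serum), and that of RPL7L1 without any 1 of 4 (the same 3 and replicate 3 with serum). RPL7, the namesake of RPL7L1, fell in the same cultures, with a log2 difference of -0.43 (adjusted p = 1.69e-04).

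In E14 cultures fewer of these mRNAs fell with serum, and the median was nearer to 0. Of the 65 genes 30 changed, against 24.3% of all 18815 probe sets, with 29 lower, against 12.2% among all, and RPL30 higher, against 12.1%. The median log2 difference was -0.16, or -10.7%, beside -0.02 for all probe sets. All 29 genes that fell at E14 were among the 51 that fell at E7, that is 100% of the E14 genes and 56.9% of the E7 genes, and no array was shared between the ages. As 51 of the 65 genes fell at E7, a large overlap was likely for any 29 of them. The overlap over all probe sets is not given, here or for the overlaps between media below. The number that changed was 16 without replicate 2 of the serum cultures, 17 without replicate 1 of either medium and 18 without replicate 2 of the SF3 cultures.

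RPL23 had the largest fall at E14. It read 9466, 9147 and 8317 in SF3 and 7240.4, 3834 and 5439 with serum. The groups lay apart, although the serum arrays were far from each other, and the log2 difference was -0.75 ± 0.17 (SE), adjusted p = 0.00591. RPL31 read 555, 476 and 550.2 in SF3 and 369, 352 and 375 with serum, a log2 difference of -0.53 (adjusted p = 0.00734). RPL4 read 18550.5, 18742 and 18620.5 in SF3 and 14307, 14362 and 14485 with serum, a difference of -0.37 (adjusted p = 7.40e-04). RPL34, RPL7A and RPS23, which sits at the decoding site of the small subunit, followed with log2 differences of -0.37, -0.36 and -0.34.

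RPL30, which in yeast binds its own transcript and holds back its splicing, was the gene that rose with serum at E14. It read 15361, 14831 and 13757 in SF3 and 16790.1, 16908 and 16825 with serum. The 3 serum arrays were above the SF3 arrays and close to each other, and the log2 difference was 0.20 (adjusted p = 0.0479). This call was lost without any 1 of the 6 arrays. RPL22L1, the gene with the largest fall at E7, did not pass at E14, where its signals were 1579, 1962 and 2083 in SF3 and 2127, 2091 and 2556 with serum. Its log2 difference there was 0.27 (adjusted p = 0.0764).

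Serum was also added on top of rcSF3, in arrays other than those above, a comparison chosen after the first values had been seen. In E7 cultures 57 of 65 genes changed, against 31.7% of all probe sets, with 56 lower, against 16.7%, 1 higher, against 15.1%, and a median log2 difference of -0.33. They held all 51 genes that fell with serum in SF3, or 91.1% of the 56. In E14 cultures 45 genes changed, against 23.4% of all, with 44 lower, against 11.8%, 1 higher, against 11.6%, and a median of -0.27, and all 29 that fell in SF3 were among them, or 65.9% of the 44. The counts depended on the scaling. Under quantile normalization 24 fell and 2 rose at E7, with a median of -0.08, and 14 fell and 6 rose at E14, with a median of -0.05. RPL23 fell further than any other gene at both ages, from 11820.1, 11825 and 11226 to 6990.2, 5877 and 7048 at E7 and from 8720.0, 7988 and 8205 to 4572, 3095 and 3916 at E14. The arrays with and without serum lay far apart, with log2 differences of -0.81 (adjusted p = 2.19e-05) and -1.12 (adjusted p = 4.46e-04). RPS27L was the gene that rose at each age, by 0.34 at E7 and 0.26 at E14, and this call was lost without replicate 1 in rcSF3 at E7, and at E14 without replicate 2 or 3 in rcSF3 or replicate 1 or 3 with rcSF3 and serum.

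**Figure D3:**
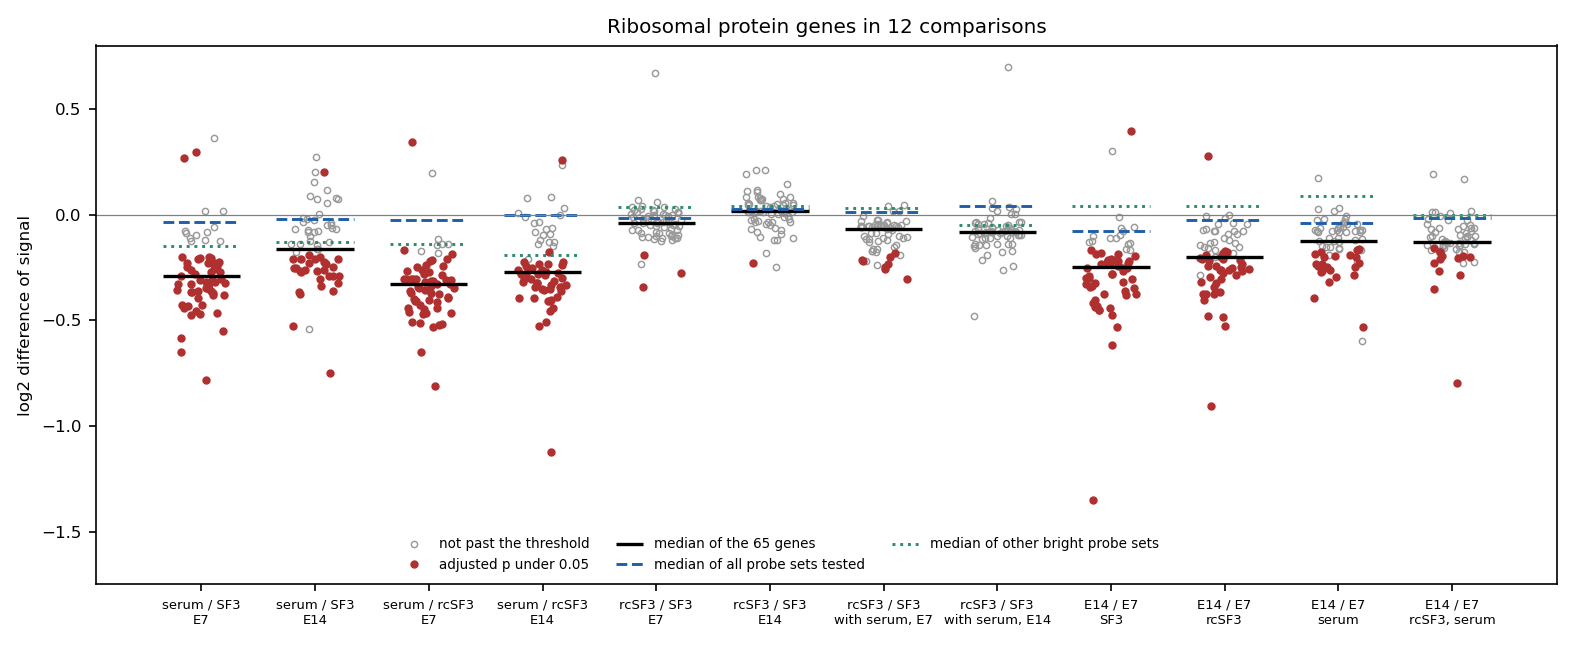
Log2 difference of signal for each of the 65 tested ribosomal protein genes in 12 comparisons; red points passed the test at an adjusted p under 0.05 and open gray points did not, and lines give the median of the genes (black), of all probe sets tested (blue dashes) and of 408 other probe sets over 10000 (green dots). On the authors' scaling the black line lies below both others with serum at each age, and the lowest point is RPL22L1 between the ages in SF3, at -1.35.

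The size of the serum difference depended on how the arrays were scaled. Other bright probe sets also read lower with serum: the 408 with a mean signal over 10000 that are no ribosomal protein gene by symbol had a median log2 difference of -0.15 at E7 and -0.13 at E14. When the arrays were centered on the 1000 brightest of the other probe sets, 49 genes fell and 2 rose at E7, with a median of -0.25, and 29 fell and 1 rose at E14, with a median of -0.14. With quantile normalization, which gives all arrays the same distribution of signals, 18 fell and 5 rose at E7, with a median of -0.04, and 12 fell and 6 rose at E14, with a median of -0.04. All 18 and all 12 were among the genes that fell on the authors' scaling. Here and in the other comparisons, counts under quantile normalization or a centering stand without the shares of all probe sets under that scaling. They therefore do not show an excess over all probe sets. RPL22L1 (-0.83), RPL23 (-0.57), RPL31 (-0.51), RPL35A (-0.40) and RPL4 (-0.33) kept their fall at E7 under quantile normalization, and RPL23 (-0.73), RPL31 (-0.53) and RPL4 (-0.31) did so at E14. Under that scaling RPS20, RPL30, RPL36A, RPS29 and RPS27L were higher with serum at E7, and RPL30, RPL36A, RPS20, RPLP1, RPL27A and RPS26 at E14.

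**Figure D4:**
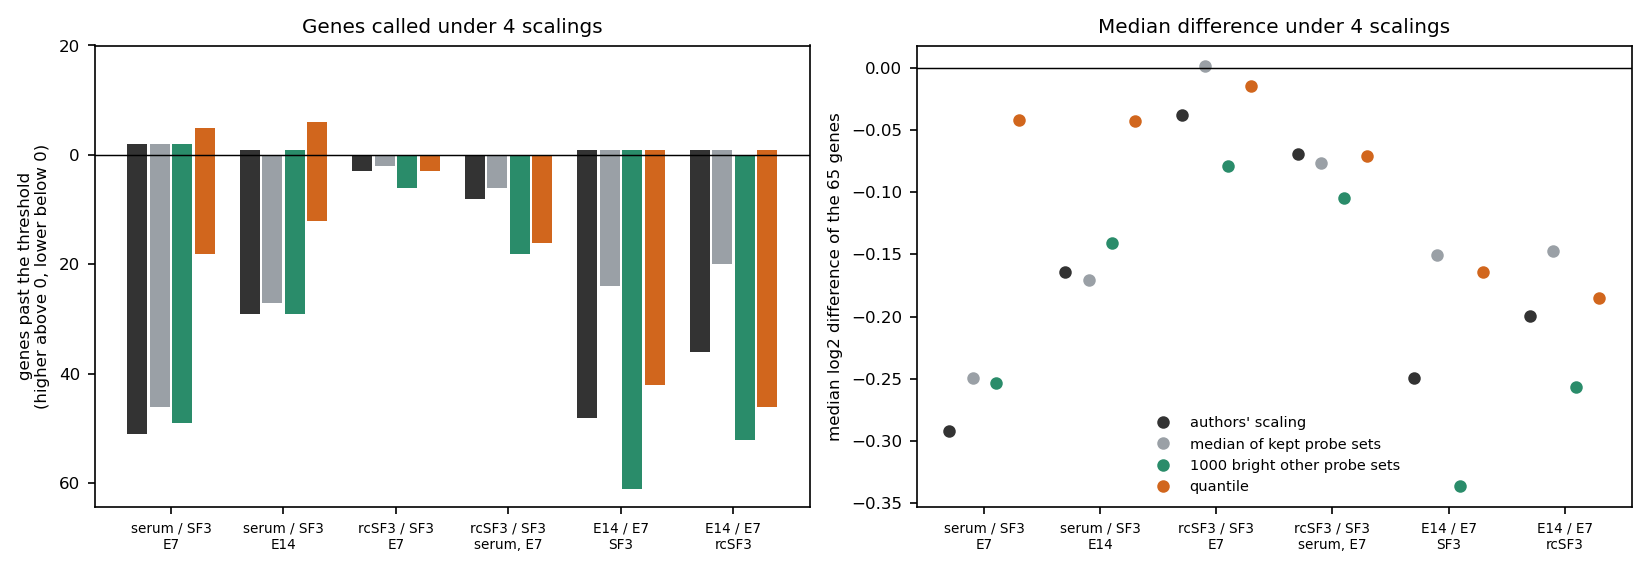
Number of ribosomal protein genes past the test (left; higher above 0, lower below 0) and their median log2 difference (right) under the authors' scaling, centering on the median of the probe sets kept, centering on 1000 bright other probe sets, and quantile normalization, for 6 comparisons. At E7 the serum genes that fell number 51 under the authors' scaling and 18 under quantile normalization. Of the 48 that fell with age in SF3, 42 also fell under quantile normalization. Fewer fell with age under centering on the median of the probe sets kept.

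Other features of the arrays moved with serum. The highest signal on an array was 41470 to 44542 in SF3 and 33605 to 39362 with serum at E7. At E14 it was 38969 to 43426 in SF3 and 32923 to 37919 with serum. In rcSF3 the highest signal was also lower with serum at both ages, without overlap. The 9 marker genes of fibroblasts and choroidal mesenchyme had a summed signal of 7026 to 10751 in SF3 and 13011 to 21291 with serum at E7, and of 7769 to 9151 and 15478 to 16497 at E14. At E7, 6 of the 9 had a mean over 100 in SF3 and 8 with serum, and at E14, 7 in both. In rcSF3 the sums were 5343 to 6844 without and 8060 to 10310 with serum at E7, and at E14 they overlapped, with 8673 to 9640 without and 9169 to 16381 with serum. Markers of neurons, with GAP43 and NEFM under 100, summed in E7 cultures to 3057 to 4302 in rcSF3 and 1758 to 2392 with rcSF3 and serum, and overlapped in SF3, with 2184 to 3111 without and 2038 to 2781 with serum. At E14 the neuron markers summed to 1578 to 2063 in SF3 and 1107 to 1535 with serum, and overlapped in rcSF3. Of the 7 neuron markers, only 2 had a mean over 100 at E14 in SF3 and 3 with serum, with TUBB3 under 100 in SF3 alone of these 2 media. PDGFRA was under 100 in all groups and LUM in all but the E7 cultures with serum in SF3. The 4 smooth muscle markers with a probe set summed to 477 to 929 in SF3 and 1977 to 2497 with serum at E7, with ACTA2, DES and MYH11 under 100 in both. At E14 the smooth muscle sums were 613 to 847 in SF3 and 1584 to 1783 with serum. In rcSF3 they were also higher with serum at both ages, without overlap. The log2 ratio of the 3′ to the 5′ probe set of the actin control was 0.75 ± 0.12 in SF3 and 0.37 ± 0.06 with serum at E7, and 0.75 ± 0.03 and 0.40 ± 0.07 at E14, whereas that of the GAPDH control was -0.14 ± 0.02 and -0.09 ± 0.03 at E7 and -0.13 ± 0.01 and -0.13 ± 0.04 at E14. Markers of blood cells and macrophages went the other way at E7, from 6293 to 7579 in SF3 to 3869 to 4367 with serum, with HBAD, LYZ and PTPRC under 100 throughout. In rcSF3 at E14 the blood markers summed to 4412 to 5602 without and 3853 to 3927 with serum. They overlapped in rcSF3 at E7 and in SF3 at E14. Markers of endothelium, with 1 of 5 genes over 100, summed to 323 to 337 in SF3 and 393 to 406 with serum at E7. In rcSF3 at E7 the endothelium sums went the other way, with 356 to 406 without and 302 to 354 with serum. At E14 they overlapped in SF3 and in rcSF3. At E14 the RPE markers summed to 217722 to 237472 in SF3 and 191747 to 217428 with serum. In rcSF3 at that age they summed to 251013 to 260379 without and 187480 to 217657 with serum. At E7 the sums were 233952 to 241025 in rcSF3 and 194611 to 216359 with rcSF3 and serum, and overlapped in SF3. Markers of dividing cells summed to 4585 to 5392 in SF3 and 4096 to 4212 with serum at E7. Their sums overlapped at E7 in rcSF3 and at E14. The genes of this list did not all move alike. At E7, 7 of its 10 genes had a mean over 100 in SF3 and 8 with serum. MCM5 and RRM2 were under 100 only in SF3, MKI67 only with serum, and MCM3 in both. The part of these features in the serum difference was not tested.

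For 14 genes at least 2 probe sets had a mean signal of 1000 or more, 31 in all. The direction with serum was the same for all probe sets of a gene in 12 of the 14 at E7 and in 12 of the 14 at E14. It was the same in 14 for age in SF3 and 13 for age in rcSF3, but in 10 for age with serum, where probe sets of a gene differed by up to 0.78 on the log2 scale, in 9 for age with rcSF3 and serum, and in 7 and 9 with rcSF3 alone at E7 and E14. Among these 31 probe sets, no gene had any past the test in opposite directions in any comparison. Over all 66 genes, a further 56 probe sets had mean signals under 1000 and were not part of this check. Averaging all probe sets of a gene, dim ones included, left 34 genes lower and 1 higher with serum at E7.

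By role in the ribosome, the stalk genes stood nearer to 0 with serum than the median gene. RPLP0, RPLP1 and RPLP2 form the stalk that receives elongation factors. At E7 RPLP0 and RPLP2 fell, with log2 differences of -0.23 (adjusted p = 0.0075) and -0.27 (adjusted p = 0.0195), and RPLP1 did not pass, at -0.10 (adjusted p = 0.216). At E14 the 3 stood at -0.05, 0.09 and -0.08, none past the test. RPL12, which anchors the stalk to the ribosome, fell at E7, with a difference of -0.27 (adjusted p = 0.0106), and stood at 0.15 (adjusted p = 0.113) at E14. RPL5 and RPL11, which bind MDM2 together with the ribosomal 5S RNA in mammals, fell at both ages, with log2 differences of -0.35 and -0.36 at E7 and -0.23 and -0.25.

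RPS27A is made as a fusion with ubiquitin, the tag that marks proteins for breakdown. It fell with serum at E7, from 26367 ± 1885 to 22601 ± 2071 (SD, n = 3; log2 difference -0.22, adjusted p = 0.0202), and stood at -0.03 (adjusted p = 0.831) at E14. RPS6, the ribosomal target of the S6 kinases, fell at both ages, with differences of -0.37 (adjusted p = 2.87e-04) at E7 and -0.26 (adjusted p = 0.0132) at E14. RPL22 fell at E7, with a difference of -0.21 (adjusted p = 0.0271), and stood at -0.08 (adjusted p = 0.45) at E14. RPL26L1, RPL39L and RPS4Y1, bright genes that are second copies by symbol only, fell with serum at both ages. Their log2 differences were -0.38, -0.29 and -0.35 at E7 and -0.29, -0.23 and -0.25 at E14. Their partner genes were not among the genes read.

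**Figure D5:**
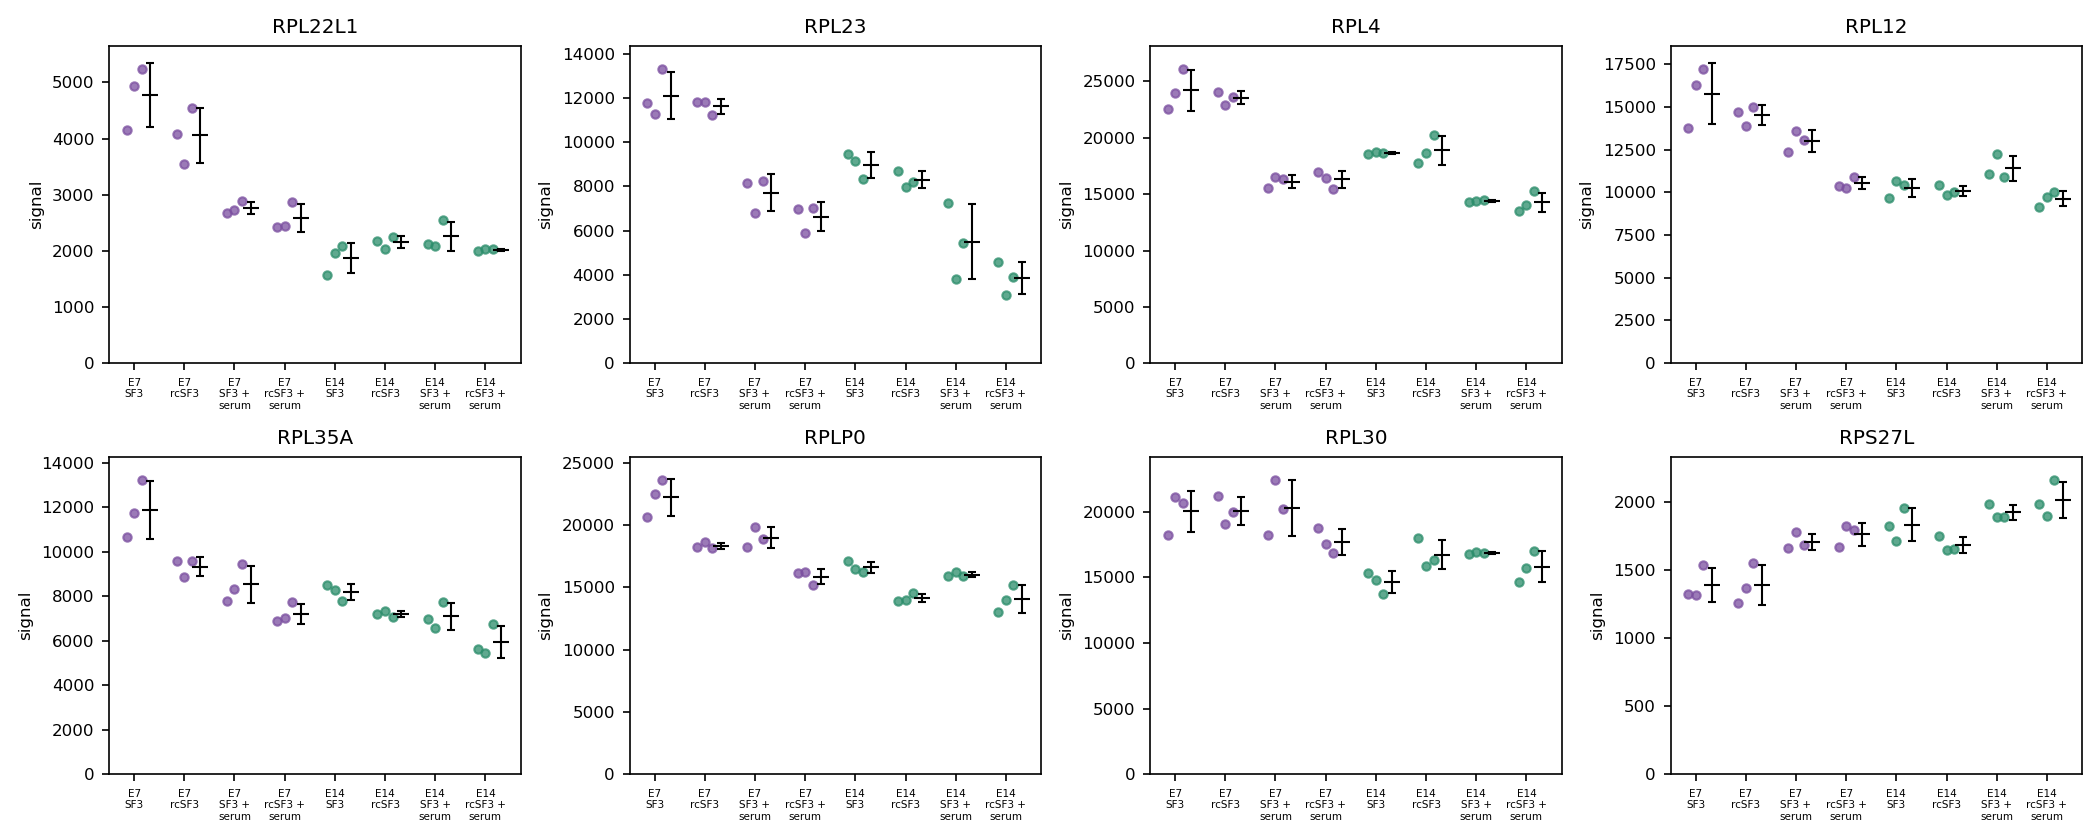
Signal on each array (linear axis from 0) of 8 ribosomal protein genes by age and medium; points are arrays, purple for E7 and green for E14, and bars give the mean and SD of 3 arrays. RPL22L1 drops with serum in the E7 cultures and lies between 1579 and 2556 on all E14 arrays. RPL23 is lowest with rcSF3 and serum at E14, and RPS27L has its lowest arrays in E7 cultures without serum.

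Retinal conditioned medium by itself changed few of these genes. With rcSF3 in place of SF3 at E7, 3 of 65 genes changed, all lower, against 27.5% of all probe sets that changed and 13.9% that fell, and the median was -0.04 beside -0.02 for all. RPLP0 fell from 20682, 22474 and 23632 to 18252, 18623 and 18183. The rcSF3 arrays were all below the SF3 arrays, with a log2 difference of -0.28 (adjusted p = 0.00296). RPL35A fell from 10669.9, 11758 and 13234 to 9596, 8854 and 9575, also without overlap, with a difference of -0.34 (adjusted p = 0.00847). RPS26 passed narrowly, with a difference of -0.19 (adjusted p = 0.0491), and its groups overlapped. Without replicate 1 of the SF3 cultures 6 genes passed, and with the replicate number as a block RPL22L1 passed as well, with a difference of -0.23 (adjusted p = 0.046).

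At E14 the 1 gene that passed with rcSF3 was again RPLP0, which fell, against 9.86% of all probe sets that changed and 4.92% that fell. Its signals were 17139, 16484 and 16221 in SF3 and 13946, 14021 and 14520.0 in rcSF3. They did not overlap, and the log2 difference was -0.23 (adjusted p = 0.0311). The call was lost without any 1 of 5 of the 6 arrays, all but replicate 3 in SF3. With the replicate number as a block 2 genes passed, RPLP0 and RPL3, which was higher, with a log2 difference of 0.21 (adjusted p = 0.0446). The median of the 65 genes was 0.02 at E14, beside 0.03 for all probe sets.

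In the presence of serum, 8 of the 65 genes fell with rcSF3 at E7 and none rose, against 21.7% of all probe sets that changed and 10.2% that fell, so that the share that fell was near that of all probe sets. The median was -0.07 beside 0.01 for all. They were RPL12, RPLP0, RPS26, RPL21, RPL36A, RPS3, RPS28 and RPLP1, and the third stalk gene, RPLP2, did not pass, with a log2 difference of -0.12 (adjusted p = 0.334). RPL12 read 12339.7, 13608 and 13049 with serum alone and 10367, 10281 and 10926 with both, and the groups lay apart, with a difference of -0.30 (adjusted p = 0.0108). RPLP0 read 18219, 19890.0 and 18863 and 16168, 16264 and 15200.2, a difference of -0.26 (adjusted p = 0.00701). The number depended on single arrays. It was 15 without replicate 1 of the cultures with serum alone, 4 without replicate 2 and 2 without replicate 3, and 2, 2 and 4 without replicates 1, 2 and 3 of those with both. At E14 no gene passed with limma, against 2.91% of all probe sets, and an unmoderated analysis of variance also called 0. At an unadjusted p under 0.05 there were 10, a count not compared with all probe sets at that level. RPLP0 stood at -0.19 (adjusted p = 0.121) there.

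In a test of any difference among the 4 media, 61 of 65 genes passed at E7, against 62.3% of all probe sets, and 43 at E14, against 41%. The age difference in the rcSF3 response had its own test, and 0 genes passed with limma, against 5.36% of all probe sets. An unadjusted p under 0.05 was reached by 2, a count not compared with all probe sets at that level. With the replicate number as a block RPL22L1 passed, with a difference of -0.45 (adjusted p = 0.0392). The median difference, E7 response minus E14 response, was -0.06.

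The age of the embryo also separated these genes. In SF3, 49 of 65 genes differed between E14 and E7 cultures, against 35.8% of all 19519 probe sets, with 48 lower at E14, against 20.2% among all, and RPS27L higher, against 15.6%. The median log2 difference was -0.25, or -15.9%, beside -0.08 for all probe sets and 0.04 for the 408 other bright ones. Of the large-subunit genes 33 of 42 were lower and of the small-subunit genes 15 of 23. Under quantile normalization 42 were lower and under centering on the bright probe sets 61, but under centering on the median of the probe sets kept 24, which moved the median of all probe sets from -0.08 to 0.02.

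RPL22L1 had the largest age difference of the set. It read 4145, 4942 and 5238 at E7 and 1579, 1962 and 2083 at E14. No E14 array reached an E7 array, and the log2 difference was -1.35 ± 0.11 (SE), adjusted p = 2.04e-09. RPL12 read 13765, 16308 and 17215 at E7 and 9681, 10656 and 10402 at E14, lower on all 3 arrays, with a difference of -0.62 (adjusted p = 4.91e-07). RPL35A read 10669.9, 11758 and 13234 and 8499.7, 8278 and 7789, a difference of -0.53 (adjusted p = 5.58e-05). RPL27A, RPS26 and RPL30, with log2 differences of -0.47, -0.45 and -0.45, completed the 6 largest falls, of which RPL27A, RPS26 and RPL30 did not pass the test with serum at E7.

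RPS27L ran the other way. It read 1324, 1312 and 1533 at E7 and 1821, 1713 and 1953 at E14, with all E14 arrays higher and a log2 difference of 0.40 (adjusted p = 7.62e-04). Some genes that fell clearly with serum stood close to 0 between the ages, such as RPS23 at -0.06 (adjusted p = 0.423). RPS3A, at -0.01 (adjusted p = 0.911), was the gene nearest to 0. The stalk genes were lower at E14, with differences of -0.42 for RPLP0, -0.21 for RPLP1 and -0.44 for RPLP2, all past the test.

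The age comparison in the other media was added after the first values had been seen. In rcSF3, 37 genes differed, against 23.5% of all, with 36 lower, against 12.4%, and RPS27L higher, against 11.1%, and a median of -0.20. Of the 36, 35 also fell in SF3, or 97.2% of the 36 and 72.9% of the 48. With serum 22 genes differed, against 28.9% of all, each lower at E14, against 15.2%, with a median of -0.12, and with rcSF3 and serum 13, against 18.8%, also lower, against 10%, with a median of -0.13. These numbers depended on the scaling. The 22 and 13 were 38 and 32 under quantile normalization and 8 and 3 with arrays centered on the median of the probe sets kept, and the 37 in rcSF3 was 21 under that centering. The 22 became 9 without replicate 3 and 14 without replicate 2 of the E7 cultures with serum, and 14 and 12 without replicates 1 and 2 of the E14 cultures. The 13 became 3 and 2 without replicates 1 and 2 of the E14 cultures with rcSF3 and serum, and 5, 7 and 7 without replicates 1, 2 and 3 of the E7 ones. RPL35A was lower at E14 in each of the 4 media, with log2 differences of -0.53 in SF3, -0.37 in rcSF3, -0.26 with serum and -0.29 with both. Its call with serum was lost without replicate 2 or 3 of the E7 or replicate 1 or 2 of the E14 cultures, and that with both without replicate 3 of the E7 or replicate 1 or 2 of the E14 cultures. RPS28 was lower in each medium too, with -0.44, -0.41, -0.40 and -0.27.

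The difference between the ages in the response to serum was tested directly, in a comparison added after the first values had been seen. Of the 65 genes 2 passed, against 3.7% of all probe sets and 1.65% in the negative direction, namely RPL22L1 and RPL12, both with the more negative response at E7. Without replicate 1 of the E7 cultures in SF3 the number was 4, and it was 1, RPL22L1, without replicate 2 or 3 of those cultures, replicate 1 of the E14 cultures in SF3 or replicate 2 of the E14 cultures with serum. The median over the genes, E7 response minus E14 response, was -0.11, and the sign of this median turned under quantile normalization, to 0.0061. For most of these genes a larger fall at E7 was thus not shown by a test of the difference.

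Other genes of the translation apparatus were read from lists in the same fits, and the shares of all probe sets that rose and fell were 17.6% and 21.6% with serum at E7 and 12.1% and 12.2% at E14. The mRNAs of the 10 tested elongation and termination factors fell in part with serum, 5 lower and 1 higher at E7 and 4 lower at E14. EEF1B2, a subunit of the factor that recharges eEF1A, went from 21829.5 ± 1219.8 to 16424 ± 749 (SD; log2 difference -0.41, adjusted p = 6.34e-05) at E7 and from 17316 ± 908 to 13478 ± 691 (SD; log2 difference -0.36, adjusted p = 9.94e-04) at E14. Of 34 initiation factors 12 fell and 3 rose at E7 and 9 fell and 2 rose at E14. EIF3M and EIF3H, subunits of the scaffold eIF3, had the lowest p among those that fell at E7, with EIF3M going from 16658 ± 1253 to 11003 ± 393 (SD; log2 difference -0.60, adjusted p = 8.08e-06). Of 18 mRNAs listed for a pyrimidine tract, some of which are also in the factor lists, 9 fell and 2 rose at E7. PABPC1, the poly(A) binding protein, went from 32096 ± 1069 to 23426 ± 712 (SD; log2 difference -0.45, adjusted p = 6.35e-05).

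Of 84 genes tested at E7 that build ribosomes or belong to the nucleolus, 19 rose and 12 fell with serum, beside 17.6% and 21.6% of all probe sets, with a median log2 difference of 0.02. Of 83 at E14, 18 rose and 1 fell, beside 12.1% and 12.2% of all, with a median of 0.18. RIOK1, a kinase of late small-subunit assembly, went from 766 ± 30.7 to 1224 ± 8.64 (SD; log2 difference 0.68, adjusted p = 3.77e-05) with serum at E7, and NPM1, an abundant nucleolar protein, went from 19256 ± 635 to 13488 ± 1274 (SD; log2 difference -0.52, adjusted p = 2.82e-04). With age 61 of 84 genes of this list were lower and 4 higher in SF3 at E14, beside 20.2% and 15.6% of all probe sets, with a median of -0.56. NOB1, the nuclease that completes the small ribosomal RNA, went from 1012 ± 111 to 529 ± 14.7 (SD; log2 difference -0.93, adjusted p = 5.00e-07). WDR43, a part of the early small-subunit precursor, was among the 4 that rose and went from 1886 ± 127 to 5741 ± 369.6 (SD; log2 difference 1.61, adjusted p = 5.32e-11).

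Of all probe sets 15.6% rose and 20.2% fell with age in SF3, and 17.6% rose and 21.6% fell with serum at E7. For the RNA polymerases that transcribe ribosomal RNA, 10 of 22 genes were lower and none higher at E14 in SF3. The median of these genes was -0.32. With serum 2 rose and 3 fell at E7, and UBTF, which opens ribosomal RNA genes for transcription, went from 88.5 ± 28.8 to 298 ± 69.7 (SD; log2 difference 1.78, adjusted p = 9.65e-05), its mean in SF3 being under 100. The mitochondrial ribosomal proteins, a separate set that serves the mitochondrial genome, rose in 12 and fell in 5 of 64 genes with serum at E7, beside 17.6% and 21.6% of all probe sets, and rose in 9 and fell in 3 at E14, beside 12.1% and 12.2%. The share that rose was near that of all probe sets at both ages, and the medians were 0.06 and 0.05. Between the ages in SF3, 16 of the mitochondrial genes were lower and 3 higher at E14, beside 20.2% and 15.6% of all probe sets.

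Of 40 genes of the mTOR and MYC pathways 13 rose and 7 fell with serum at E7, beside 17.6% and 21.6% of all probe sets, and 6 rose and 7 fell at E14, beside 12.1% and 12.2%. SESN3, a sestrin that restrains mTOR, went from 2234 ± 428 to 4387 ± 103 (SD; log2 difference 0.99, adjusted p = 1.10e-05) with serum at E7. From E7 to E14 in SF3 MYCN, a transcription factor known to drive ribosome genes, went from 1349.6 ± 138 to 176 ± 17.7 (SD; log2 difference -2.94, adjusted p = 2.15e-09). How many of the 40 genes changed with age is not given here, and the part of MYCN in the age difference was not tested. Beside 17.6% and 21.6% of all probe sets, 4 of 12 tested p53 and stress genes rose and none fell with serum at E7. One of them was CDKN1A, the p53 target p21, which went from 444 ± 135 to 812 ± 105 (SD; log2 difference 0.91, adjusted p = 0.00256), and between the ages in SF3 it went from 444 ± 135 to 1074 ± 144 (SD; log2 difference 1.31, adjusted p = 1.73e-05). For the p53 list too, the number of genes that changed with age is not given here. Of the 23 nascent chain and signal recognition genes, 2 rose and 4 fell with serum at E7, beside 17.6% and 21.6% of all probe sets. With age 1 of these genes rose and 10 fell, beside 15.6% and 20.2% of all. PCNA, a marker of dividing cells, went from 2527 ± 192 to 1999.5 ± 136 (SD; log2 difference -0.34, adjusted p = 0.00193) between the ages in SF3, and the summed signal of 10 such markers was 4585 to 5392 at E7 and 3311 to 4040 at E14. Markers of other cell types also stood apart between the ages in SF3. Those of blood cells and macrophages summed to 6293 to 7579 at E7 and 3916 to 4832 at E14, those of neurons to 2184 to 3111 and 1578 to 2063, and those of the RPE to 193002 to 211591 and 217722 to 237472. Of the 7 neuron markers, 4 had a mean over 100 at E7 and 2 at E14. The part of these in the age difference of the ribosomal protein genes was not tested.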

How the data were processed

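RNA of the 24 cultures was labeled by 3′ amplification and hybridized to Affymetrix chicken genome arrays, 1 array per biologic repeat. The deposited values are intensities on a linear scale that the authors obtained with the Affymetrix software and scaled per array to a single target. Detection calls were not used here. Of 38535 probe sets, 96 controls were left out, and gene symbols came from the platform annotation, with 27168 probe sets having 1 symbol, 177 several and 11094 none. One medium code, which the labels do not spell out, was read as rcSF3 with serum.

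Signals were taken to log2 with no pseudocount. Probe sets with a mean signal of at least 100 over the arrays of an age (of either age for age comparisons) were tested with limma 3.58.1 in R 4.3.3 (lmFit and eBayes with a mean-variance trend), with media compared over the 12 arrays of an age and ages over the 24 arrays. P-values were adjusted by Benjamini-Hochberg over all probe sets kept, and an adjusted p under 0.05 passed. The repeats are biologic repeats, and p-values measure the spread between them. The fit was tested on simulated data with changes of known size and independent noise. Such data lack the deviations that these genes shared within an array. Figures were drawn with matplotlib 3.10.9 in Python 3.11.15.

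The ribosomal protein genes, the gene lists and the comparisons were chosen with earlier results of these data known. Named genes were, in each comparison, up to 6 with the largest increase and up to 6 with the largest decrease among those that passed without overlap between groups, the 4 brightest and 4 dimmest genes, second copies with their partners, the stalk genes, RPS27A, and the genes of each list with the lowest p. Genes outside this rule, such as RPL5, RPL11, RPS6, RPS3A and those that did not pass with serum at E7, were named after their values had been seen. Alternatives were the scaling, the signal filter, the variance model, the unmoderated analysis of variance that the methods name, a replicate block, the arrays in the fit, the mean over all probe sets of a gene, and each array left out.

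Replicate numbers were checked as pairs by correlating the deviations of same-numbered arrays from their group means. All 3 pairs were over 0.1 for rcSF3 against SF3 at E7 (0.11 to 0.15) and at E14 (0.14 to 0.21) and for serum with and without rcSF3 at E14 (0.11 to 0.23), so that the numbers were taken to pair these media. The labels do not say what a number marks. The other media, among them serum against SF3, did not reach this bar.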

Additional observations from a re-analysis of the deposited data

Results flagged for a closer look

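The response to serum differed between the ages for 2 of 65 ribosomal protein genes by a test of the difference itself, with limma over the 24 arrays. This test was added after the first values had been seen. Of all probe sets 3.7% passed it, so that the count of 2 was near the share of all and is no result about the set. For RPL22L1 the E7 response minus the E14 response was -1.06 on the log2 scale, with adjusted p = 3.84e-04. At E7 its signal was lower with serum on 3 of 3 arrays, and at E14 all 3 serum arrays were above those in SF3. Over 22 alternatives its adjusted p lay between 1.24e-04 and 0.08, and it missed the threshold in 1, the mean over all probe sets of the gene. For RPL12 the difference was -0.43, with adjusted p = 0.0197, from a fall at E7 and a value of 0.15 at E14 that did not pass. It missed the threshold in 6 of 22 alternatives and turned its sign in 1 more, where a dim second probe set entered the mean. Single arrays decided the RPL12 call, which was lost without replicate 2 or 3 of the E7 cultures in SF3, replicate 1 of the E14 cultures in SF3 or replicate 2 of the E14 cultures with serum.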

How the results depend on the processing

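Of 516 recomputed counts and medians of the ribosomal protein genes, 430 stayed within 1.5 times the count or 1 SD between replicates (0.07 on the log2 scale for the median) and 85 moved. In 1 more, a median larger than that SD changed sign. Medians smaller than the SD that crossed 0 by less than 1 SD count among the 430. With rcSF3 alone the median turned to 0.0070 at E7 and to -0.0071 at E14, each without replicate 3 in SF3. Of 1068 recomputed values of 66 gene results, 911 kept their direction and side of the threshold, 152 missed the threshold and 5 changed sign. The cause of these changes was not tested. Below, counts are of genes that changed of 65, given without the shares of all probe sets, and medians are log2 differences.

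Under quantile normalization the counts were 23 (median -0.042) with serum at E7, 18 (-0.042) with serum at E14, 26 (-0.078) and 20 (-0.048) with serum added to rcSF3 at E7 and E14, 3 with rcSF3 at E14, 16 with rcSF3 in serum at E7, 37 and 28 for any medium at E7 and E14, 38 for age with serum and 32 for age with rcSF3 and serum. The median for age in SF3 was then -0.16, and the age difference in the serum response turned to 0.0061. With arrays centered on 1000 other bright probe sets the counts were 6 with rcSF3 at E7, 18 with rcSF3 in serum at E7, 57 (-0.23) for age with serum and 36 for age with rcSF3 and serum, and the median for age in SF3 was -0.34. With centering on the probe sets kept, they were 25 (-0.15) for age in SF3, 21 in rcSF3, 8 with serum, 3 with both, and 1 with rcSF3 in serum at E14.

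Without a signal filter the counts were 17 with serum at E14, 0 with rcSF3 at E14, 2 with rcSF3 in serum at E7, 14 for age with serum and 4 for age with both, and without the variance trend 10, 0, 2, 13 and 3, with 1 for the age difference in the serum response. A filter at 200 or a fit over all 24 arrays gave 2 with rcSF3 at E14, and a fit over the compared groups alone gave 11 for age with serum, 4 for age with both and 1 for the age difference in the serum response. The mean over all probe sets of a gene gave 35 with serum at E7, a median of -0.082 with serum at E14, 37 and 27 with serum added to rcSF3, 2 with rcSF3 at E14, and 1 each with rcSF3 in serum at E14 and for the age difference in the serum response. With that mean RPL34 turned to 0.36 with serum at E14, RPL31 to 0.0038 with serum added to rcSF3 at E7, RPL27A to 0.035 for age with rcSF3 and serum, RPS28 to 0.41 for age in rcSF3 and RPL12 to 0.089 for the age difference in the serum response.

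The fit with the replicate number as a block gave 2 with rcSF3 at E14 and 1 for the age difference in the rcSF3 response, and left the other counts within 1.5 times. For media other than those paired by this check, the samples share a number only.

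With each array left out in turn, the counts ranged from 45 to 54 with serum at E7, 16 to 29 with serum at E14, 52 to 58 and 36 to 46 with serum added to rcSF3 at E7 and E14, 2 to 6 and 0 to 1 with rcSF3 at E7 and E14, and 2 to 15 and 0 to 1 with rcSF3 in serum at E7 and E14. They ranged from 40 to 50 for age in SF3, 26 to 37 in rcSF3, 9 to 25 with serum and 2 to 19 with both, 0 to 1 for the age difference in the rcSF3 response (1 without E7 SF3 replicate 1) and 1 to 4 for that in the serum response. Depth is not known for arrays, and the 3 dim genes give the least precise values.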
